A study of Mus musculus with 8 samples.

Results

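The genes described here make nitric oxide in endothelium or receive it. They were the 7 rows of the deposited table named Nos3, Ddah1, Ddah2, Gucy1a1, Gucy1b1, Gch1 and Arg2, out of 34899 genes, and all 7 passed the filter on low values, which 17067 genes passed. The study sequenced RNA of lung endothelial cells from female C57BL6 mice, sorted as cells negative for the leukocyte antigen CD45 and positive for the endothelial antigen CD31. The groups were HF and LF, with 4 mice and 4 libraries each. The labels do not spell out these names and give no age, allele or feeding protocol, and the series title concerns obesity. Values are the authors' normalised read counts, which are not scaled for gene length, and each fold divides HF by LF, computed from log2(value + 1).

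In the vessel wall, the endothelial nitric oxide synthase, encoded by Nos3, makes nitric oxide from arginine and needs tetrahydrobiopterin as a cofactor, for which the GTP cyclohydrolase Gch1 carries out the first and rate-limiting step. Methylated arginines inhibit the synthase, the hydrolases Ddah1 and Ddah2 are the enzymes named for degrading them, and the mitochondrial arginase Arg2 uses the same arginine. Nitric oxide binds the heme of soluble guanylate cyclase, a dimer of the subunits Gucy1a1 and Gucy1b1, which then makes cyclic GMP. In the lung this pathway is known for relaxing vessels, and the cyclase is also abundant in smooth muscle and pericytes, the mural cells that wrap capillaries.

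Libraries held 14990589 to 20781564 recovered reads in HF and 10631506 to 15516831 in LF. The sorted cells carried endothelial markers in every library: Pecam1, which encodes CD31, was at 28252 ± 1063 in HF and 25381 ± 6906 in LF. None of the 12 endothelial markers was at 0 in any library. The LF libraries were not alike. On the first principal component, with 36.1% of the variance, LF 1 and LF 2 had scores of -56.4 and -50.9, and the remaining libraries scored from -6.79 to 39.6. The members' results are therefore also given with either pair left out, LF 1 with LF 2 or LF 3 with LF 4, in fits that share the HF libraries. These pairs were chosen from the scores of the same libraries, so each such fit keeps LF libraries that lie close together. Its p-values do not reflect the spread between the LF pairs.

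Ddah1 was higher in every HF library than in any LF library, both cyclase subunits were lower in every HF library than in any LF library, and the groups overlapped for the other members. Groups without overlap were seen in 3 of 7 members, 1 above and 2 below, against 5.43% of all genes tested, of which 3.47% lay above and 1.96% below. At an unadjusted p under 0.05 by limma there were 4 of 7 members, Nos3 and Ddah1 higher and Gucy1a1 and Gucy1b1 lower in HF, against 11.0% of all genes, with 6.36% higher and 4.67% lower. After Benjamini-Hochberg adjustment, with a threshold of 0.05, limma called 0 of 7 members and 0.00% of all genes, and edgeR's quasi-likelihood test called none of them either. DESeq2 on the recovered reads called 2 of 7, Ddah1 higher and Gucy1a1 lower, against 2.17% of all genes with an adjusted p, made up of 1.57% higher and 0.596% lower. It gave Arg2 no adjusted p, so that member could not be called. The authors' deposited table has the same 2 members at an adjusted p under 0.05. There it lists 2.04% of its 15276 genes with an adjusted p, 1.58% higher and 0.458% lower. Without LF 1 and LF 2 limma called 1 of 7 members, higher in HF, against 3.76% of all genes, with 3.09% higher and 0.662% lower. Without LF 3 and LF 4 it called 5 of 7, with 4 higher and 1 lower, against 20.0% of all genes, with 14.0% higher and 6.02% lower. The members were chosen with earlier results of these data known, so these shares describe them and do not test them as a set.

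Promoter sequences are shown for both cyclase subunits, because both were lower in every HF library, and for the Ddah paralogs, because the groups were apart in 1 and overlapped in the other. They are RefSeq sequence of GRCm38.p6, read on the gene's own strand, upstream of the first listed start and trimmed where an exon of the gene in GENCODE M21 begins. RefSeq entries matched 5 of 7 members. Capitals mark matches on either strand to the core of Krüppel-like factor sites, whose letters are CACCC, to the GC box, which is spelled GGGCGG, and to the CCAAT box, which is named for its letters. No marked letters overlap another motif. The Gucy1a1 stretch is chr3:82145790-82145900 on the minus strand, Gucy1b1 chr3:82074712-82074961 on the minus strand, Ddah1 chr3:145758442-145758674 on the plus strand and Ddah2 chr17:35058785-35059034 on the plus strand.
Gucy1a1: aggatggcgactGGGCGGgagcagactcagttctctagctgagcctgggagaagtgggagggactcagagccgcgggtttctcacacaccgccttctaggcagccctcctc
Gucy1b1: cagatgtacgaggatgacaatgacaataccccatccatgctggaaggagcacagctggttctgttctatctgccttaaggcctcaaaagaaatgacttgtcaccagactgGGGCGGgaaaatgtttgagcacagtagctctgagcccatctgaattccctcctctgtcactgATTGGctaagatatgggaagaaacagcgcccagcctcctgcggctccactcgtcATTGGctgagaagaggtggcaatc
Ddah1: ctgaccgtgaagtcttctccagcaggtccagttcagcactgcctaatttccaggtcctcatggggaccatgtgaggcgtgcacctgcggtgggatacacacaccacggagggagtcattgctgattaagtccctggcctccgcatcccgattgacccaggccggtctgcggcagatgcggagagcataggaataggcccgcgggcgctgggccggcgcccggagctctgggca
Ddah2: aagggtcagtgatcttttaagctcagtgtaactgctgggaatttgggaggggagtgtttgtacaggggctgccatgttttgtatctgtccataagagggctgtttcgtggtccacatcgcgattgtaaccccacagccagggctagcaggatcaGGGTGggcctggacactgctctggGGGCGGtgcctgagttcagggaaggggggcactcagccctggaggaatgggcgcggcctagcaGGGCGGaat

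Each cyclase promoter held 1 GC box. In the 111 bases of Gucy1a1 that is a motif found in 11.4% of 27025 promoters cut to the same length, and in the 250 bases of Gucy1b1 one found in 32.9%. The cut kept the bases furthest upstream of each listed start, and those promoters were not trimmed at exons. The Gucy1a1 stretch ends where an annotated exon begins, so its share matches length but not distance to the first exon. Gucy1b1 also held 2 CCAAT boxes, a motif found in 34.5% of promoters of that length, and Gucy1a1 held 0. The paralogs differed in these letters. Ddah2 held 2 GC boxes and 1 CACCC, which 51.3% of promoters of 250 bases hold, while the 233 bases of Ddah1 held none of the 3 motifs. A match of letters is a description and not a binding site.

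Per kilobase of exon, the members spanned a wide range of levels, with Ddah2 at the top and Arg2 far below the rest. Ddah2 averaged 2615 ± 142 normalised counts per kb in HF and 2266 ± 585 in LF, above 98.4% of all genes tested, and Arg2 averaged 13.4 ± 4.67 in HF and 17.3 ± 2.01 in LF. Ddah1 was at 551 ± 36.5 in HF and 386 ± 20.7 in LF. Gucy1a1 was at 376 ± 23.3 in HF and 523 ± 85.2 in LF. Per kb, the order of these genes was opposite in the groups. Ddah1 was 1.26 to 1.68 times Gucy1a1 in the HF libraries and 0.616 to 0.895 times Gucy1a1 in the LF libraries. That order depends on the lengths used, which count the bases of all annotated exons, 3983 for Ddah1 and 6968 for Gucy1a1. Before division by length, Gucy1a1 was above Ddah1 in every library, at 2430 to 2778 against 1996 to 2332 in HF. Per kb, below Ddah1 and Gucy1a1 in HF came Gch1 at 307 ± 12.1, Nos3 at 305 ± 20.3 and Gucy1b1 at 272 ± 35.1. The ranges of Gch1 and Nos3 overlapped in HF, as did those of Nos3 and Gucy1b1, so their order there is within the spread. In LF, Gucy1b1 was at 357 ± 50.9, Gch1 at 257 ± 72.9 and Nos3 at 227 ± 64.9, each with a range that overlapped its neighbour's, and the range of Gucy1b1 overlapped that of Ddah1 as well.

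**Figure D1:**
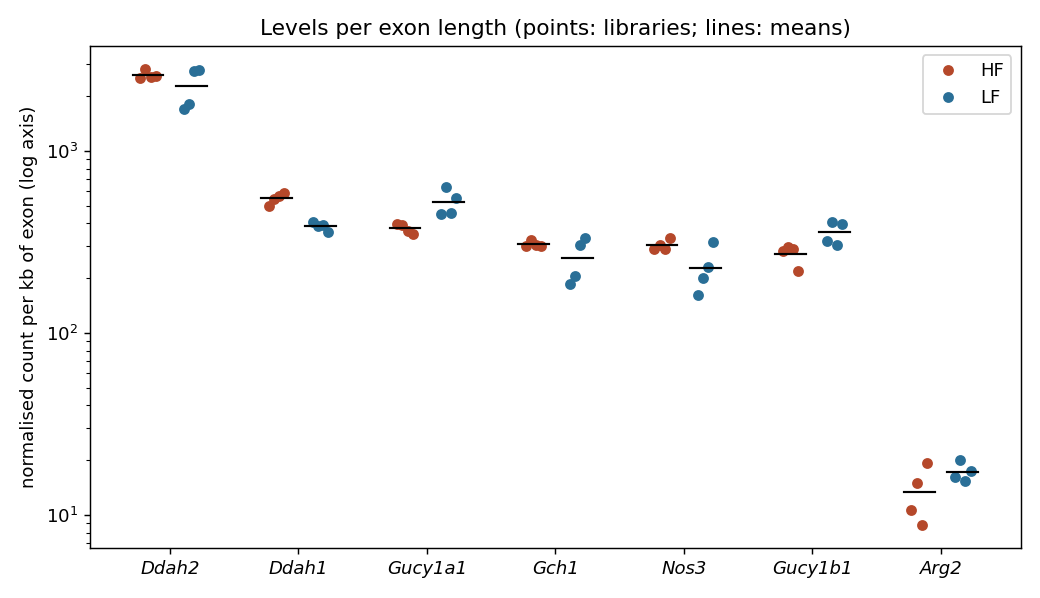
Normalised counts per kilobase of exon on a log axis, with HF libraries left of LF libraries for each gene, points for libraries and lines for means (n = 4 per group). Ddah2 is the highest member and Arg2 the lowest in both groups, and on this scale Ddah1 lies above Gucy1a1 in HF and below it in LF. Without division by length, Gucy1a1 was above Ddah1 in every library.

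For Nos3, normalised counts were 1195, 1263, 1202 and 1376 in HF 1 to HF 4, against 672, 829, 947 and 1303 in LF 1 to LF 4. The HF libraries lay close together, with a coefficient of variation of 6.66%, against 28.6% in LF, and LF 4 was within the HF range. The fold was 1.38 (95% interval 1.06 to 1.79, limma adjusted p = 0.352, exact two-sided permutation p = 0.114). It was 1.13 without LF 1 and LF 2 (adjusted p = 0.675 by limma) and, at the other extreme, 1.68 without LF 3 and LF 4 (limma adjusted p = 0.00464), so the call depends on which LF libraries are kept. Set against the summed counts of the 12 endothelial markers, Nos3 was at 6.10 to 6.57 per 1000 marker counts in HF and 4.90 to 5.79 in LF, with no overlap. Against 6 markers of general capillary endothelium the groups overlapped, at 12.7 to 13.2 in HF and 10.03 to 16.1 in LF, as they did against 7 artery markers, at 44.8 to 50.1 in HF and 35.8 to 57.2 in LF. With every library rescaled to the 12 endothelial markers, the fold was 1.23 (limma adjusted p = 0.608), a scaling that moved the median log2 fold change of all genes to -0.14, against 0.02 as deposited. Nos3 lies on chromosome 5 from 24364810 to 24384474 in GENCODE M21 (GRCm38). Its exons share 294 bases with Atg9b and 1040 bases with Gm15587, both on the other strand, and the sources used here do not say whether the counting took strand into account. Those partners were low, with Atg9b at 47.4 ± 9.01 in HF and 34.5 ± 12.8 in LF and Gm15587 at 16.0 ± 4.68 in HF and 23.0 ± 8.14 in LF.

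Gch1, the supplier of the cofactor, had normalised counts of 1869.7, 2031, 1910.1 and 1872 in HF, against 1157, 1283, 1896 and 2089 in LF. LF 3 was within the HF range and LF 4 above it, while LF 1 and LF 2 were below every HF library. The fold was 1.23 (0.946 to 1.61; limma adjusted p = 0.548). Leaving out LF 1 and LF 2 gave 0.965 (limma adjusted p = 0.892), and leaving out LF 3 and LF 4 gave 1.58 (limma adjusted p = 0.00386). Gch1 lies on chromosome 14 from 47153895 to 47189413.

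Of the methylarginine hydrolases, Ddah1 had groups without overlap and Ddah2 had groups that overlapped. Ddah1 had 1996, 2182, 2264 and 2332 normalised counts in HF, against 1615, 1548, 1566 and 1421 in LF. Every HF library was above every LF library, and both groups were tight, with coefficients of variation of 6.62% in HF and 5.37% in LF. The fold was 1.43 (1.21 to 1.67), with an unadjusted p of 0.000407 and an adjusted p of 0.162 by limma. An exact two-sided permutation test over the libraries gave 0.0286, the smallest p that 4 against 4 allows. Groups without overlap always give this value. DESeq2 on the recovered reads gave an adjusted p of 0.00197, and the authors' deposited table gives a log2 fold change of 0.51 with an adjusted p of 0.00168. Ddah1 was the only member that limma called in both fits without a pair of LF libraries, at a fold of 1.47 without LF 1 and LF 2 (adjusted p = 0.0128) and 1.38 without LF 3 and LF 4 (adjusted p = 0.0113). Those p-values leave out the spread between the LF pairs. Against endothelial markers the groups overlapped, with Ddah1 at 10.4 to 12.2 per 1000 marker counts in HF and 6.32 to 11.97 in LF. Summed markers of general capillary endothelium were also higher in every HF library, at 90534 to 108655 in HF and 67006 to 80773 in LF. All 6 had a log2 fold change above 0, but only Plvap and Sema3c were themselves higher in every HF library. For Gpihbp1, Aplnr, Kit and Lpl the groups overlapped. Ddah1 per 1000 general capillary marker counts was 21.5 to 24.9 in HF and 17.6 to 24.1 in LF. The 7 artery markers likewise summed higher in every HF library, at 24169 to 30200 in HF and 18753.5 to 22776.5 in LF. All 7 had a log2 fold change above 0, but only Gja5, Efnb2 and Sox17 were themselves higher in every HF library. Ddah1 per 1000 artery marker counts overlapped, at 77.2 to 86.5 in HF and 62.4 to 86.1 in LF. The part of these marker differences in the result was not tested. Ddah1 lies on chromosome 3 from 145758675 to 145894277.

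Ddah2 had 4002, 4501, 4066 and 4095 normalised counts in HF, against 2721, 2889, 4379 and 4448 in LF. LF 3 and LF 4 sat within the HF range and LF 1 and LF 2 below it. The fold was 1.18 (0.918 to 1.52; limma adjusted p = 0.607). Leaving out LF 1 and LF 2 gave 0.943 (limma adjusted p = 0.798), whereas with LF 3 and LF 4 left out it was 1.48 (limma adjusted p = 0.00507). The test of the difference between the paralogs' folds was not run. The ratio of Ddah1 to Ddah2 per kb was 0.194 to 0.228 in HF and 0.128 to 0.237 in LF, which overlap. Ddah2 lies on chromosome 17 from 35059035 to 35062095.

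**Figure D2:**
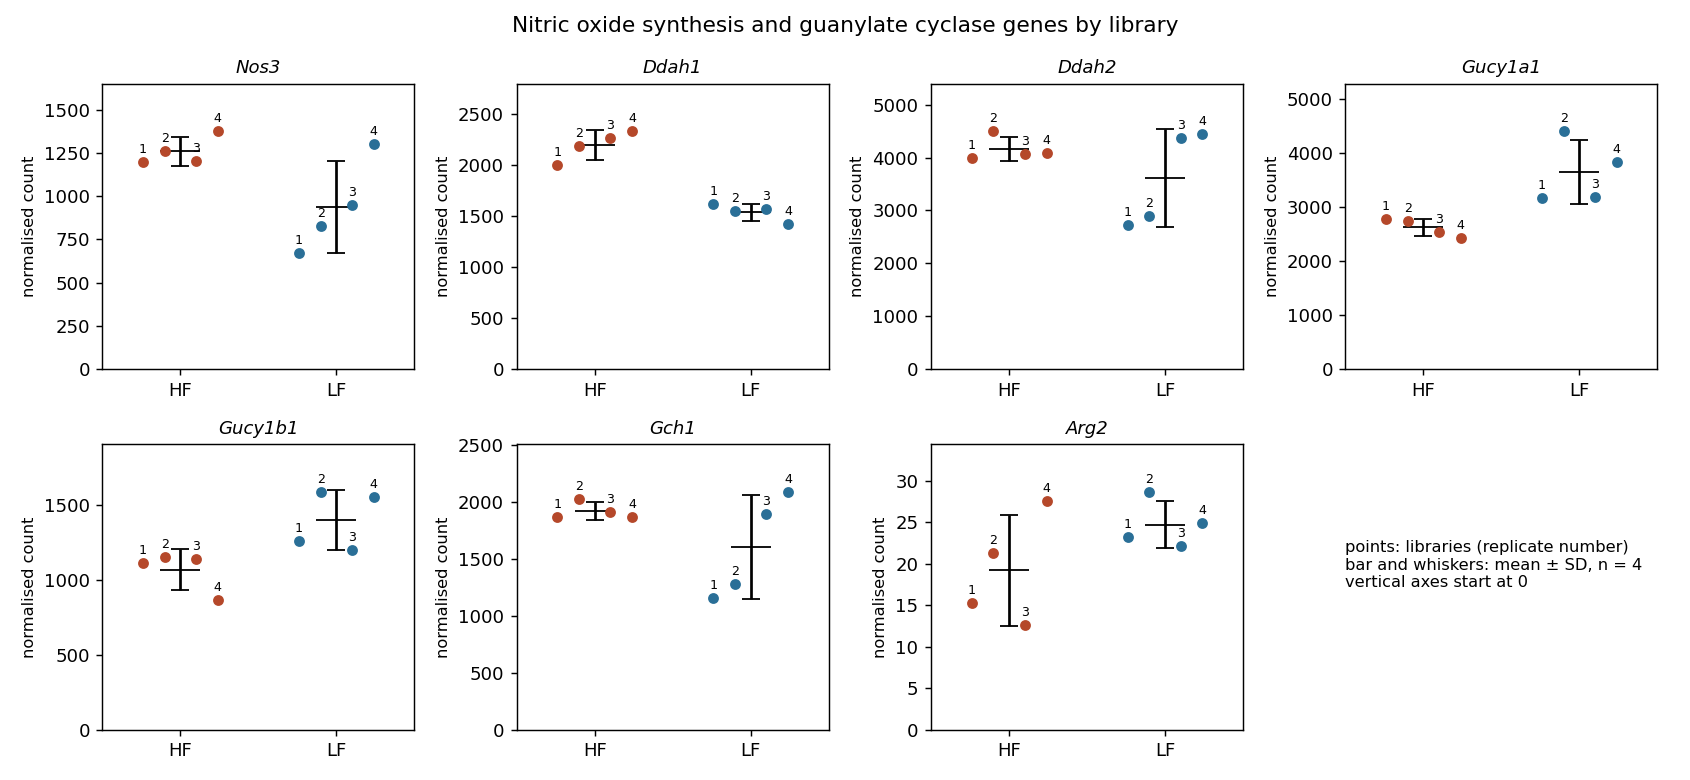
Normalised counts of the 7 genes in each library, HF left of LF, with the replicate number beside each point and mean ± SD (n = 4) as bar and whiskers. Ddah1 lies wholly higher and Gucy1a1 and Gucy1b1 wholly lower in HF, and for Nos3, Ddah2 and Gch1 the LF libraries are spread widely, with LF 1 and LF 2 the lowest.

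Both cyclase subunits were lower in every HF library. Gucy1a1 had 2778, 2728, 2541 and 2430.2 normalised counts in HF, against 3156, 4398, 3179.55 and 3836 in LF. Every HF library was below every LF library. The fold was 0.725 (0.595 to 0.884), with an unadjusted p of 0.00399 and an adjusted p of 0.214 by limma, and an exact two-sided permutation p of 0.0286. DESeq2 on the recovered reads gave an adjusted p of 0.0269, and the authors' deposited table gives a log2 fold change of -0.48 with an adjusted p of 0.0443. Leaving out LF 1 and LF 2 gave a fold of 0.749 (limma adjusted p = 0.0604), and with LF 3 and LF 4 left out it was 0.702 (limma adjusted p = 0.0207).

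Gucy1b1 had 1113, 1158, 1143 and 865 normalised counts in HF, against 1260.3, 1591, 1201 and 1556 in LF. The groups again did not overlap, though HF 4 stood below the other HF libraries. The fold was 0.764 (0.618 to 0.943; limma adjusted p = 0.335, exact two-sided permutation p = 0.0286), and neither fit without a pair of LF libraries called it (folds of 0.777 and 0.750, limma adjusted p = 0.288 and 0.0622). The ratio of Gucy1a1 to Gucy1b1 per kb was 1.25 to 1.58 in HF and 1.39 to 1.56 in LF, and the groups overlapped in this proportion. The genes are neighbours on chromosome 3, Gucy1b1 from 82032006 to 82074689 and Gucy1a1 from 82092427 to 82145789, on the same strand, with 17737 bases and 0 annotated genes between them.

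**Figure D3:**
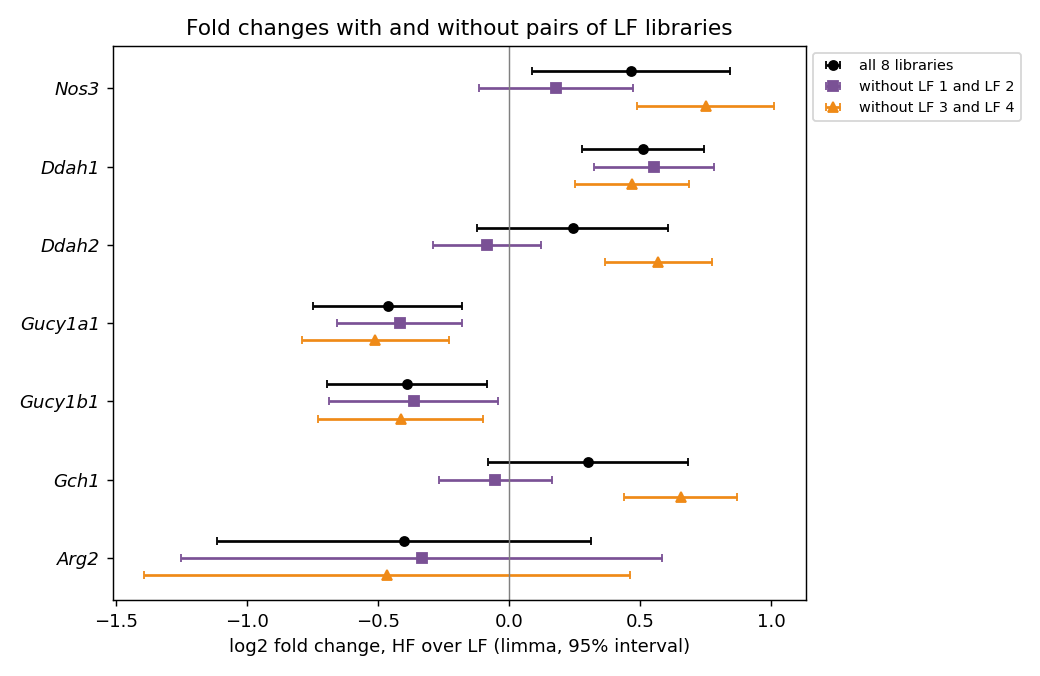
Log2 fold changes of HF over LF from limma with 95% intervals, for all 8 libraries and without either pair of LF libraries. The values of Ddah1 and both cyclase subunits differ little between the 3 fits, while those of Nos3, Ddah2 and Gch1 depend on the LF pair left out.

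Pericyte markers had lower means in HF, as the cyclase did. All 10 had the lower mean in HF, 8 of them at an unadjusted p under 0.05 by limma, where 4.67% of all genes were lower at that threshold, and 0 passed the adjusted one. Their median log2 fold change was -0.52, against -0.46 for Gucy1a1 and -0.39 for Gucy1b1. Their summed counts were 5495 to 6907 in HF and 7229 to 9811 in LF, with Postn giving 44.0% to 54.2% of the sum. No pericyte marker was at 0 in any library, and Pdgfrb, the receptor that defines mural cells, was at 947 ± 109 in HF and 1461 ± 379 in LF. Per 1000 pericyte marker counts, Gucy1a1 was at 402 to 461 in HF and 432 to 488 in LF. Gucy1b1 was at 157 to 207 in HF and 162 to 198 in LF, so against all 10 markers the groups overlapped for both. With Postn left out of the sum, which was chosen after its share was seen, Gucy1a1 was higher in every HF library, at 878 to 933 in HF and 860.04 to 873 in LF, and Gucy1b1 overlapped, at 314 to 402 in HF and 314 to 353 in LF. Against the endothelial markers the difference was larger, with Gucy1a1 at 11.6 to 14.5 per 1000 marker counts in HF and 16.4 to 29.9 in LF. In bulk samples, fewer cells of a type and less RNA per cell cannot be told apart. Smooth muscle markers summed to 1185 to 1318 in HF and 1401 to 1931 in LF, and Acta2, smooth muscle actin, was at 205 ± 56.2 in HF and 251 ± 24.8 in LF. Of these 8 markers, 6 had a log2 fold change below 0, 2 of them at an unadjusted p under 0.05 by limma. Tagln and Actg2 were above 0. Per 1000 smooth muscle marker counts the groups overlapped for both subunits. Gucy1a1 was at 1927 to 2221 in HF and 1778 to 2476 in LF, and Gucy1b1 at 730 to 943 in HF and 710 to 1004 in LF.

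**Figure D4:**
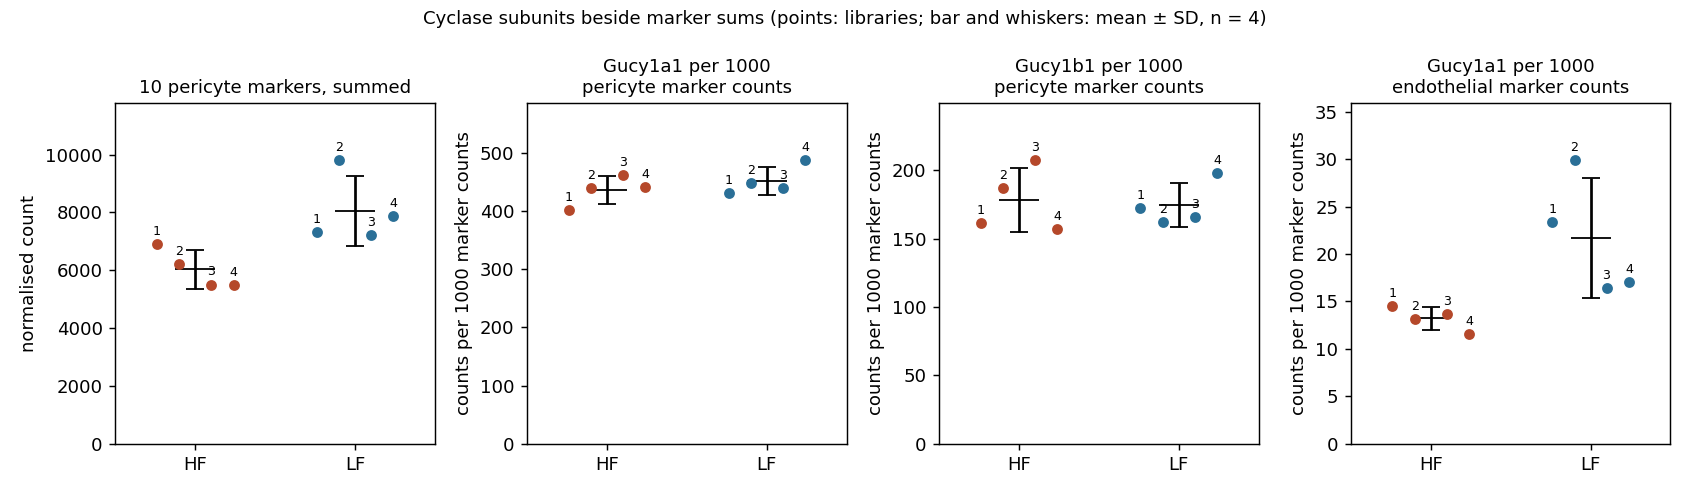
From left to right, the summed normalised count of 10 pericyte markers, Gucy1a1 and Gucy1b1 per 1000 pericyte marker counts, and Gucy1a1 per 1000 endothelial marker counts, by library with mean ± SD (n = 4). The marker sum and the ratio to endothelial markers are lower in every HF library, while the ratios to all 10 pericyte markers overlap.

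Fold changes of markers of other cells were also negative. The log2 fold change was below 0 for all 6 fibroblast, 9 epithelial and 8 tested leukocyte markers, though the arithmetic means of the fibroblast genes Dcn and Lum were higher in HF, with Dcn at 228 in HF and 214 in LF and Lum at 45.1 in HF and 38.4 in LF. Epcam, which defines epithelium, was at 39.6 ± 11.2 in HF and 58.1 ± 36.7 in LF, Col1a1, a fibroblast collagen, at 163 ± 79.1 in HF and 240 ± 89.6 in LF, and Ptprc, which encodes CD45, at 166 ± 72.8 in HF and 199 ± 59.0 in LF. Their part in the members' differences was not tested.

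Arg2 was scarce, with 13 to 35 recovered reads per library. It had 15.2, 21.3, 12.6 and 27.6 normalised counts in HF, against 23.2, 28.6, 22.1 and 24.9 in LF. The groups overlapped, and the fold was 0.758 (0.462 to 1.243; limma adjusted p = 0.66). The library with 13 reads carries a counting error of 27.7%, and the interval of the fold includes 1. Arg2 lies on chromosome 12 from 79130777 to 79156301, and its exons share 285 bases with Vti1b on the other strand, a gene at 1638 ± 95.9 in HF and 1608 ± 255 in LF. Without strand, reads from that overlap cannot be told apart.

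The genes most like each member over the 8 libraries were found among 10911 genes with a mean of at least 50, by the root mean square difference of log2 values centred on each gene's mean. Gucy1a1 was closest to Trpc6, a cation channel that also stands in the pericyte list (0.0578 log2 units), then to Nr1h3, the liver X receptor alpha (0.0745), and Rsph9 (0.0891), while Gucy1b1 was closest to S1pr3, a sphingosine 1-phosphate receptor (0.0668), Map7 and Sdc2. The subunits differed from each other by 0.106, with 6 of the 10911 genes closer to Gucy1a1 and 5 closer to Gucy1b1. Gch1 and Ddah2 differed by 0.0512, with 5 genes closer to Gch1 and 18 closer to Ddah2, and the ratio of Gch1 to Ddah2 per kb was 0.115 to 0.120 in HF and 0.108 to 0.120 in LF. Nos3 was closest to Cdc42ep1 (0.0673), Slc35e4 (0.0739) and Ace, the angiotensin-converting enzyme of lung capillaries (0.0744). Ddah1 was closest to Plekhf2 (0.0702), Tmpo and the transcription factor Klf3, Ddah2 to Atp6v0d1 (0.0243), Bcap31 and Nt5c3, Gch1 to Cyb561d2 (0.0438), Srpr and Pex3, and Arg2 to Zfp112 (0.145), Wdr19 and Llgl2. These values share the libraries' normalisation and describe likeness only.

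The other genes of the pathway, 52 in 5 lists, gave no call by limma over all genes. Of the 47 that passed the filter, 5 had an unadjusted p under 0.05, 3 higher and 2 lower in HF, which is 10.6% of them, against 11.0% of all genes. Their median log2 fold change was 0.05, against 0.02 for all genes tested. The members' own median was 0.24.

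Among 13 tested synthases and partners of the synthase, 11 had a log2 fold change above 0, as did 9087 of all 17067 genes. That count was 4 of 13 with endothelial marker scaling, 7 with quantile normalisation and 5 without LF 1 and LF 2. The gene with an unadjusted p under 0.05 was Klf2, the flow-responsive transcription factor that induces Nos3, at 5639, 7445, 11260 and 12050 normalised counts in HF, against 6491, 4882, 3023 and 2750 in LF. HF 1 was below LF 1, and the fold was 2.16 (1.39 to 3.35; limma adjusted p = 0.191). Dropping LF 1 and LF 2 gave 3.01 (limma adjusted p = 0.00555), and dropping LF 3 and LF 4 gave 1.54 (limma adjusted p = 0.0987). Klf4, its relative, had a fold of 1.19 (0.980 to 1.45; limma adjusted p = 0.497). The inducible synthase Nos2 was at 242 ± 53.9 in HF and 278 ± 70.8 in LF. The neuronal Nos1 was at 0 to 2.03 in HF and 0 to 1.85 in LF and did not pass the filter. Nostrin, a trafficking partner of the synthase, had a fold of 0.999 (0.823 to 1.21).

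In arginine and methylarginine handling, 5 of 8 tested genes had a log2 fold change above 0, against 4 with endothelial marker scaling and 2 without LF 1 and LF 2. Prmt3, an arginine methyltransferase, was at 301, 371, 396 and 427 in HF, against 299, 284, 179 and 215 in LF. The groups met without overlap, HF 1 and LF 1 being nearly equal, and the fold was 1.55 (1.17 to 2.06; limma adjusted p = 0.232). Limma called it without LF 1 and LF 2, at a fold of 1.89 (adjusted p = 0.0127), and not without LF 3 and LF 4, at 1.27 (adjusted p = 0.144). Prmt1, which makes most asymmetric methylarginine, had a fold of 1.23 (0.969 to 1.57; limma adjusted p = 0.512). For Prmt1 the fit without LF 1 and LF 2 gave a fold of 1.0005 (limma adjusted p = 0.998), and the fit without LF 3 and LF 4 called it at 1.52 (limma adjusted p = 0.00563). The arginine transporter Slc7a1 had a fold of 1.09 (0.823 to 1.46). For tetrahydrobiopterin, 4 of 7 genes had a log2 fold change above 0, against 3 with endothelial marker scaling. Pcbd1, a dehydratase of pterin recycling, was at 7.96 ± 3.26 in HF and 14.5 ± 4.93 in LF (limma adjusted p = 0.534).

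The cyclic GMP list held other cyclase genes and natriuretic peptide receptors beside genes downstream of the cyclase. In it, the log2 fold change was above 0 for 6 of 14 tested genes and below 0 for 8, with a median of -0.18. It was above 0 for 2 of 14 with endothelial marker scaling, which moved the median of all genes to -0.14. Npr1, the natriuretic peptide receptor that makes cyclic GMP by its own cyclase domain, was at 1832 ± 89.6 in HF and 1520.04 ± 206 in LF. Its fold was 1.21 (1.01 to 1.45; limma adjusted p = 0.423), opposite in direction to the soluble cyclase. Prkg1, the cyclic GMP-dependent kinase, was at 277 ± 28.3 in HF and 354 ± 75.2 in LF. The fold was 0.793 (0.614 to 1.02; limma adjusted p = 0.493). Dropping LF 1 and LF 2 gave 0.934 (limma adjusted p = 0.876), and dropping LF 3 and LF 4 gave 0.673 (limma adjusted p = 0.0275). The alternative subunit Gucy1a2 was at 28.5 ± 8.49 in HF and 38.1 ± 6.42 in LF, with overlap. Pde5a, which degrades cyclic GMP in mural cells and platelets, had a fold of 0.823 (0.657 to 1.03; limma adjusted p = 0.516).

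Of 5 genes that consume nitric oxide or its adducts, 4 had a log2 fold change below 0. All 5 did with endothelial marker scaling, which moved the median of all genes to -0.14. The alpha globins Hba-a1 and Hba-a2, which are near-identical copies whose reads may be split uncertainly, had folds of 0.782 (0.602 to 1.02; limma adjusted p = 0.476) and 0.745 (0.598 to 0.928; limma adjusted p = 0.309). Without LF 1 and LF 2 their folds were 0.63 and 0.637 (limma adjusted p = 0.00654 and 0.00792), and without LF 3 and LF 4 they were 0.969 and 0.871 (limma adjusted p = 0.746 and 0.18). The 4 erythrocyte markers summed to 11672 to 13732 in HF and 12944 to 25917 in LF, highest in LF 3, where Hba-a1 was also highest at 13067. The part of erythrocyte RNA in these values was not tested.

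**Figure D5:**
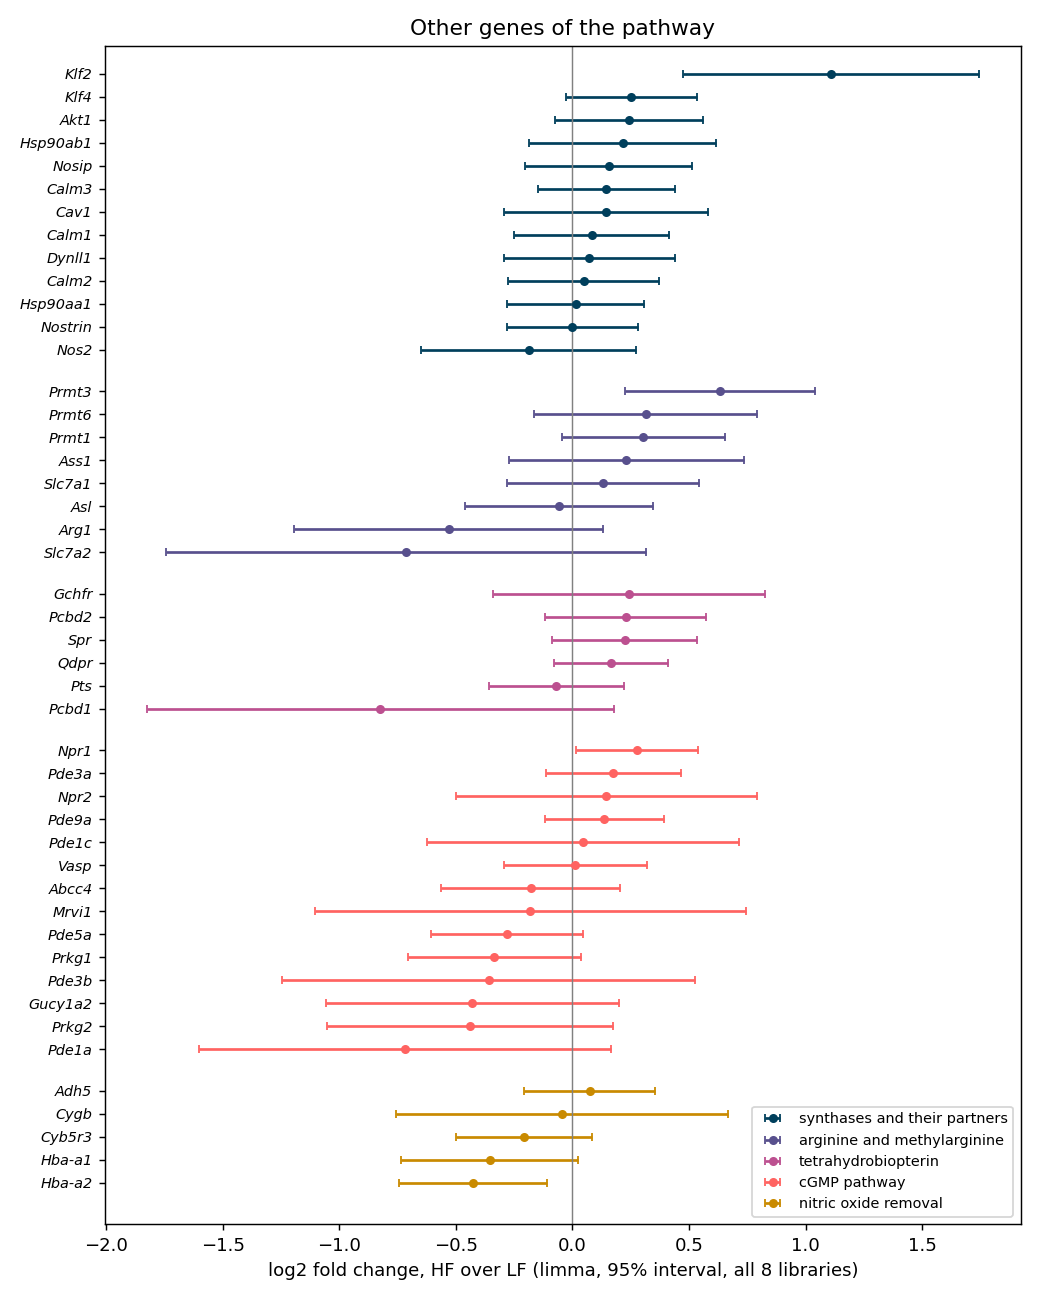
Log2 fold changes of HF over LF with 95% intervals from limma for tested pathway genes that are not members, grouped by role. Klf2 and Prmt3 lie furthest to the right with intervals above 0, Hba-a2 has its interval below 0, and most intervals include 0.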

How the data were processed

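RNA-seq of sorted lung endothelial cells was deposited by the authors as a signal per gene and library, normalised counts not scaled for gene length, beside columns of their own comparison of HF with LF, which per the file headers are a log2 fold change with its error, a p-value before and after adjustment, and a test score. Named in the submitters' processing notes, without roles, are DESeq2 1.24.0, featureCounts 2.0.0 and STAR 2.6.1b. Genome build, annotation and strand setting: not given in the sources used here. Of each library's values, 100% were whole multiples of 1 read within a tolerance of 0.01, so reads were recovered, with size factors of 0.82 to 1.27 and totals of 10631506 to 20781564. These totals limit the precision of low genes, amplified reads that carry no molecular identifier do not each stand for a molecule, and counting errors cover counting only. No column of per-sample values lacked a sample, and 24 symbols turned into dates were restored from GENCODE M21, which matched all 34899 gene IDs.

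A gene was tested when 4 or more libraries held 10 or more normalised counts, which left 17067, with limma 3.58.1 (mean-variance trend, log2(normalised count + 1), two-sided, no covariates) in R 4.3.3, and p-values were adjusted over all of them by Benjamini-Hochberg. Intervals are 95%. Fold changes understate those of low genes. edgeR 4.0.16 (quasi-likelihood, TMM) and DESeq2 1.42.0 on the recovered reads were alternatives, beside other pseudocounts, filters, scalings, weights, a replicate block and libraries left out. The tests were tried on simulated counts. Within groups, no libraries agreed within sampling noise (chi-square per degree of freedom of 9.06 to 45.2).

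The members and gene lists were chosen with earlier results of these data known. Named beside the 7 members were, per pathway list, genes with an unadjusted p under 0.05 or the 2 smallest p, the 3 genes most like each member, and defining markers. Nos2, Nos1, Nostrin, Slc7a1, Gucy1a2 and Pde5a were named for their roles after their values were seen. Marker sums and ratios of counts are descriptions without a test. 1 gene of the pathway lists is counted but not reported here by name or value.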

Additional observations from a re-analysis of the deposited data

Results flagged for a closer look

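Gucy1b1 was at 865 normalised counts in HF 4, apart from the other HF libraries at 1113 to 1158, a gap of 0.845 of the group's range, past Dixon's 95% critical value for 4 samples. This was the only one of 34 groups of 4 libraries checked, over the members and the named pathway genes, and chance passes that limit in about 1 in 20 groups. Without HF 4 the log2 fold change of Gucy1b1 was -0.29 (limma adjusted p = 0.767), against -0.39 with it.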

How the results depend on the processing

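Log2 fold changes were above 0 for Nos3, Ddah1 and Klf2, and below 0 for Gucy1a1 and Gucy1b1, in all 22 alternatives. They ranged from 0.18 to 0.75 for Nos3, 0.34 to 0.56 for Ddah1, 0.63 to 1.59 for Klf2, -0.63 to -0.37 for Gucy1a1 and -0.56 to -0.29 for Gucy1b1, and the range for Arg2 was -0.59 to -0.18 in 21. Limma called 0 genes with all 8 libraries (1882 at an unadjusted p under 0.05). DESeq2 called 313 genes, 2.17% of those with an adjusted p, with 2 of 7 members and 1 of 47 tested pathway genes. With no filter limma called 1 gene. Leaving out 1 library gave 0 to 1 calls over all genes and 0 among members and pathway genes. Without LF 1 and LF 2 limma called 641 genes (3.76% of all genes), 1 of 7 members and 4 of 47 pathway genes. In that fit the log2 fold changes of Ddah2 and Gch1 turned to -0.085 and -0.052. Without LF 3 and LF 4 limma called 3421 genes (20.0% of all genes), 5 of 7 members and 11 of 47 pathway genes. The cause was not tested. With the replicate number as a block limma called 0 genes (954 higher and 856 lower at an unadjusted p under 0.05), 0 members and 0 pathway genes. The numbers share no stated source, and the deviations of same-numbered libraries correlated at 0.115, -0.222, -0.143 and 0.185, so they were not taken as pairs. Depth limits Arg2, Pcbd1 and other genes with few reads.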
